A study of Mus musculus with 18 samples.

Results

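The 6 libraries compared here came from vehicle-treated brown adipocytes of 1 line, 3 without and 3 with doxycycline (Dox), out of 18 libraries in the series. The libraries were taken by their labels, and the comparison itself was chosen with earlier results of these data known. The line was made from mouse brown adipocytes and was cultured much like BAT-LgT, a brown preadipocyte line immortalised with SV40 large T antigen. It carries a stable shRNA against Abhd5, and Dox induces an shRNA-resistant ABHD5 fused to mCherry from a second construct. Both groups carry the shRNA and the ABHD5 construct, were differentiated in culture and received the vehicle DMSO for 3 h. The group without Dox, labelled ABHD5 KD, is the knockdown state. The group with Dox, labelled WT, received 1 µg/ml Dox for 24 to 48 h by the labels and for 24 h in the study's description of this experiment, and is the rescued state. No library came from cells given Dox without the ABHD5 construct, so an effect of Dox and an effect of re-expressed ABHD5 cannot be told apart. The knockdown line is its own control, and nothing in the sources used here says that several clones were tested. The other 12 libraries came from the same cells stimulated for 3 h with the β-adrenergic agonist isoproterenol (ISO, 10 nM) or with SR-3420 (20 µM), a ligand of ABHD5. They served to ask whether the effect of Dox was found again in cells that share no library with the vehicle comparison. The study's methods state that RNA-seq came from 3 independent experiments, and the labels do not say which library came from which.

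As background, ABHD5 (CGI-58) sits on perilipin 1 at the lipid droplet and, when released, activates the triglyceride lipase ATGL, encoded by Pnpla2. Type I interferons bind the receptor IFNAR, whose kinases JAK1 and TYK2 act on transcription factors that, with IRF9, bind the interferon-stimulated response element (ISRE) near the start of many antiviral genes. Most cell types, adipocytes among them, can run this program, and the same genes can also be switched on by sensors of viral or misplaced nucleic acids that act upstream of interferon production.

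Total counts of the 6 libraries ranged from 689910 to 1956565, and the median gene had 8 to 25 counts per library, so weakly counted genes were measured with little precision. Between 19.0% and 24.8% of a library's counts fell on its 10 most abundant genes. The counted length of a gene lay within 10% of its annotated intron length for 66.3% of the matched genes and within 10% of its exon length for 2.47%. The study's methods name iRNA-seq with its option for counting over genes, so what the deposited counts cover is not settled by the sources, although the lengths match introns for most genes. Spliced and unspliced RNA are not told apart here, and genes of short counted length have few counts. Adipocyte identity was checked with defining markers. Adiponectin (Adipoq) stood at 302 to 469 CPM (counts scaled to a common library size) in the 6 libraries and perilipin 1 (Plin1) at 456 to 1006 CPM. The thermogenic uncoupling protein Ucp1, which defines activated brown fat, had at most 1.12 CPM in any of the 6 libraries, so the vehicle cells showed almost no Ucp1 transcription. Markers of macrophages, endothelium and muscle had few counts. Of 17 macrophage markers 2 had enough counts to be tested, with a summed level of 28.6 to 48.7 CPM without Dox and 38.5 to 47.7 CPM with Dox over the 16 in the table, and Lyz1 and Tyrobp had no count. Of 11 endothelial and 12 muscle markers 2 and 1 were tested, at 16.9 to 37.5 and 18.7 to 39.6 CPM without Dox and 24.7 to 34.4 and 26 to 33.7 CPM with Dox. Tie1 among the endothelial markers had no count, and 6 of the 11 muscle markers in the table, Myod1 and Myog included, had none. None of these 5 tested markers passed. Preadipocyte and fibroblast markers were plentiful, at a summed 1875 to 2043 CPM without Dox and 2012 to 2431 CPM with Dox, and 0 of the 11 tested passed in edgeR (3 at an unadjusted p under 0.05).

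The targeted gene was examined first. Abhd5 (deposited as NM_026179, spanning 122260734 to 122290641 of chromosome 9 in mm9) gave 47.2, 55.8 and 54.8 CPM without Dox and 583, 656 and 484 CPM with Dox. The groups did not overlap, and each Dox library lay far above all libraries without Dox. The means were 52.6 ± 4.71 CPM without and 574 ± 86.1 CPM with Dox (SD, n = 3). On the log2 scale this was a rise of 3.46 with an SE of 0.17 (edgeR adjusted p 2.44e-14). All bracketed values after a gene's name from here on are log2 fold changes, with Dox over without Dox. The counts do not distinguish the construct from the endogenous gene, and whether the construct holds intron sequence is not given in the sources used here.

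With Dox, the vehicle cells carried a strong interferon-type transcription program, and few other genes passed in the main fit. Of 10178 genes tested, 89 (0.874%) were called higher and 2 (0.0197%) lower, where a call needed both an adjusted p up to 0.05 and a log2 fold change beyond 1 in either direction. Of the 89, 81 were members of 8 lists of genes tied to the interferon response, and 0 of the 2 lower genes were. The lists, written with earlier results of these data known, also hold signalling parts and whole families such as the PARPs. Without the fold limit 111 genes (1.09%) were higher and 9 (0.0884%) lower, and 1000 genes had an unadjusted p under 0.05, 404 of them lower. With the replicate number added to the fit as a block, 220 genes were higher and 51 lower without the fold limit. Called genes outside the lists then numbered 25, against 10 in the main fit and 23 with no filter on low counts. The median log2 fold change of all tested genes was 0.00281 after scaling, which centres most genes near 0 by construction. The 3 values with Dox all lay above the 3 without it in each of the 89 genes, whereas groups without overlap, in either direction, were found in 1522 of the 10178 genes. Choosing the 89 by adjusted p and fold change in these same libraries favours such separation, here and for the single genes below. In bulk RNA a change in the share of cells that transcribe a gene and a change per cell cannot be told apart.

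**Figure D1:**
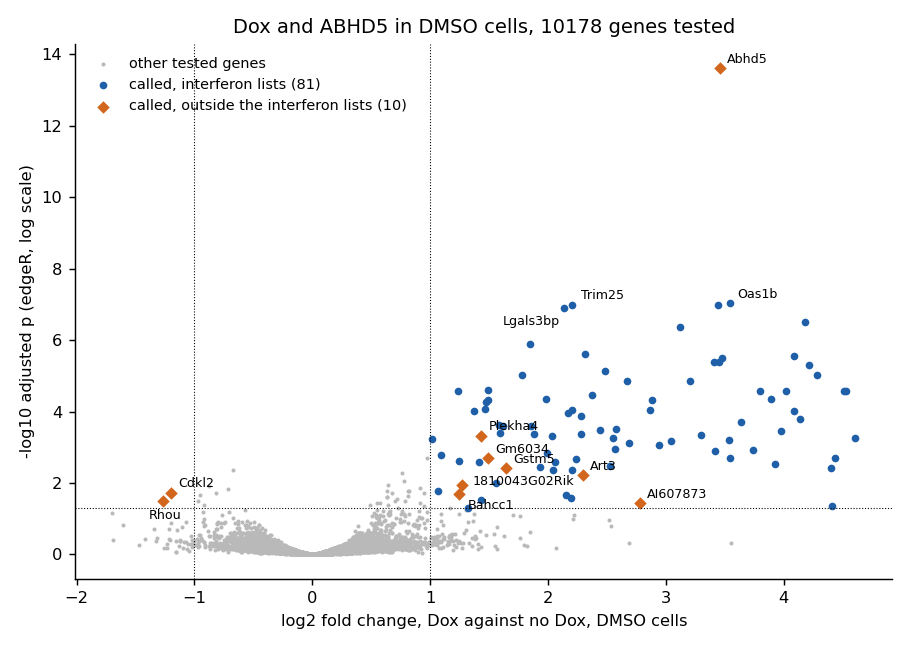
Log2 fold change of Dox against no Dox in DMSO cells (x axis) against the -log10 adjusted p from edgeR (y axis) for 10178 genes, with dotted lines at an adjusted p of 0.05 and a log2 fold change of 1 in each direction. The 81 called interferon-list genes (circles) all lie on the right, Abhd5 stands highest, and Cdkl2 and Rhou are the 2 called genes on the left.

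The promoters of the called genes were read from the mm9 genome, 250 bases before and 50 bases from each deposited start, for all 17672 genes of the table. They were searched on both strands for the ISRE core, taken as 2 copies of GAAA with 2 bases between them. These letters stood in 43 of the 81 called interferon genes (53.1%), in 9 of the 58 interferon-list genes that did not pass (15.5%) and in 316 of all 10178 tested genes (3.1%), against 568 of all 17672 windows (3.21%). The 43 genes with the letters had a median log2 fold change of 3.21 and the 38 without them 2.16. The 43 held 66 matches, 42 of them with their first base within 100 bases before the start, and 19 genes had more than 1 match. The STAT dimer site GAS (TTC, 3 bases, GAA), which reads the same on both strands, stood in 13 of the 81 (16%), in 12 of the 58 that did not pass (20.7%) and in 668 of the tested genes (6.56%). A match describes letters in a window, and no binding was measured. The windows of 4 interferon genes with the letters and of the 2 called genes outside the lists that held them are printed 5′ to 3′ along the gene's strand, with the ISRE letters in capitals, from chr16:23609755-23610054 (Rtp4, plus strand), chr6:121195674-121195973 (Usp18, plus), chr5:121262397-121262696 (Oas1b, plus), chr3:142222766-142223065 (Gbp3, plus), chr17:36179656-36179955 (Gm6034, plus) and chr1:175671891-175672190 (AI607873, minus).
Rtp4: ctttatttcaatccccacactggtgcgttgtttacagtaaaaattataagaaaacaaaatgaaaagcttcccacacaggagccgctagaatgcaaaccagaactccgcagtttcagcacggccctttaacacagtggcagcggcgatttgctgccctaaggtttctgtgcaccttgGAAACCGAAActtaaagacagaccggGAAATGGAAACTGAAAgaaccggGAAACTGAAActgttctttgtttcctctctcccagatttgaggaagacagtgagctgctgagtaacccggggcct
Usp18: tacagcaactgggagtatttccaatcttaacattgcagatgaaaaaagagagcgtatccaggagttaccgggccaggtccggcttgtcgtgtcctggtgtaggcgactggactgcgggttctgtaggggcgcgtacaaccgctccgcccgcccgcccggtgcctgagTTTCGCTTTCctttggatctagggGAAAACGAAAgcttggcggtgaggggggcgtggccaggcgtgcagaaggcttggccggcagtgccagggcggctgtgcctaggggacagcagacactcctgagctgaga
Oas1b: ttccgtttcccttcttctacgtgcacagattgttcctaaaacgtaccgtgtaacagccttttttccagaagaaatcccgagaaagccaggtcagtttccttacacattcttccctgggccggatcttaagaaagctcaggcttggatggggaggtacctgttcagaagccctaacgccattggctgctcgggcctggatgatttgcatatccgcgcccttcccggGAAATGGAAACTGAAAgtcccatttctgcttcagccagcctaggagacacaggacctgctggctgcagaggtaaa
Gbp3: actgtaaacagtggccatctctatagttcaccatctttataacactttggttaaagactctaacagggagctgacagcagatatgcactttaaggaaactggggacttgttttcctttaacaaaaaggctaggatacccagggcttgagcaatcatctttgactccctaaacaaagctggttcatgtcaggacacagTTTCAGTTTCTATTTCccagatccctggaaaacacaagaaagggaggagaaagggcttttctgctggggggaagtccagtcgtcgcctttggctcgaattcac
Gm6034: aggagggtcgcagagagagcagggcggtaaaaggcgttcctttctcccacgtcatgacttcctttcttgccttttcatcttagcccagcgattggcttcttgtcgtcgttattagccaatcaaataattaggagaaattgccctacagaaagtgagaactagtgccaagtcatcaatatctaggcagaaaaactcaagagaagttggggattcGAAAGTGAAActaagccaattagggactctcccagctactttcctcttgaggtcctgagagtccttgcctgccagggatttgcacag
AI607873: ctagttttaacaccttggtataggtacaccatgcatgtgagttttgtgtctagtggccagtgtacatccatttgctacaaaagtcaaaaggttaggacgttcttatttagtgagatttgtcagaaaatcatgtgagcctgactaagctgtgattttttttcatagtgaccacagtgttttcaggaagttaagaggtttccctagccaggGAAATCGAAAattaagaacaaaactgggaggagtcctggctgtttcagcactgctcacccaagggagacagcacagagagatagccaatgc
Rtp4 held 4 matches, Usp18, Oas1b and Gbp3 held 2 each, and Gm6034 and AI607873 held 1 each.

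**Figure D2:**
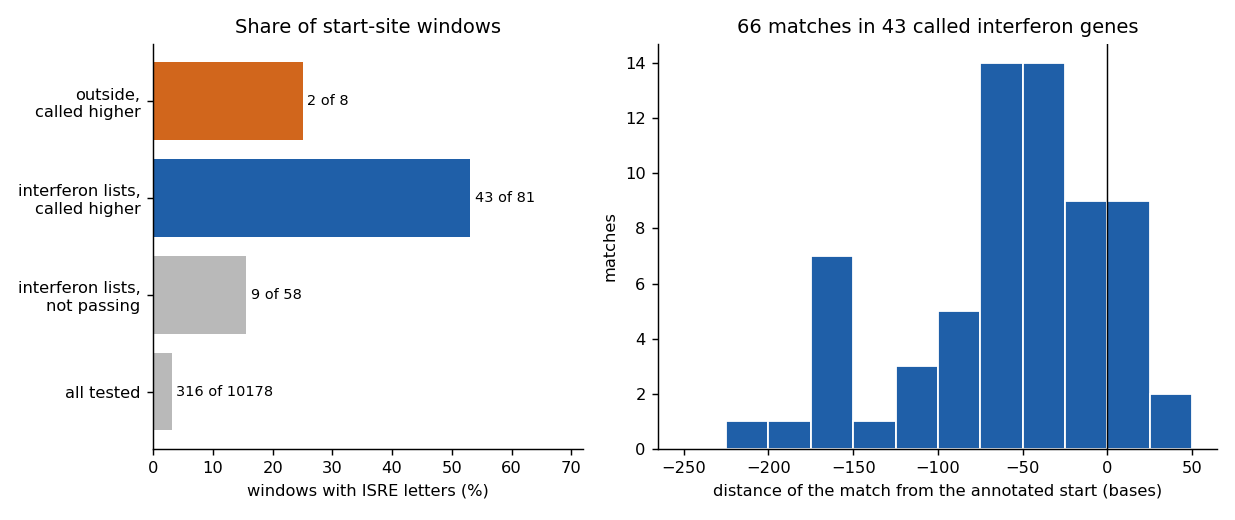
Left, share of 300-base start-site windows with ISRE letters (x axis, percent) in all tested genes, in interferon-list genes not passing or called higher, and in called genes outside the lists, with the counts beside the bars. Right, number of matches (y axis) by distance of their first base from the annotated start (x axis, bases) in the called interferon genes, where most of the 66 matches lie in the 100 bases before the start.

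Within the interferon program, the oligoadenylate synthetases, which make the second messenger that activates RNase L on double-stranded RNA, and their relatives rose as a group. Of 13 listed genes 6 had enough counts to be tested, and these 6 were called higher, with a median log2 fold change of 3.48 against 0.00281 for all genes tested. Here and in the lists that follow, a gene nearly silent without Dox could enter the test only through libraries where it was high, so shares and medians over tested genes are partly set by the filter on low counts. Of the 81 called interferon genes 8 had at most 3 counts in every library without Dox, and 31 interferon genes were called where 10 counts in every sample were required. Oas1b gave 16, 23.1 and 18.3 CPM without Dox and 153, 254 and 265 CPM with Dox (3.55, SE 0.34, edgeR adjusted p 9.32e-08). Oasl2 gave 24.9, 58.5 and 26.4 CPM and then 226, 469 and 435 CPM (3.41, SE 0.42, edgeR adjusted p 4.11e-06). For both genes every library with Dox exceeded every library without it, and replicate 1 was the lowest of the Dox libraries. Oas1a had at most 1 count in any library without Dox, and its summed counts were 25.7 times higher with Dox (exact 95% interval 6.86 to 216). This interval, like the others given for ratios of summed counts, covers counting error only. The Oas1 genes are close copies of each other, so the split of reads between them is uncertain.

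Sensors of nucleic acids followed, with 12 of 18 tested genes called higher (median 2.16). Dhx58 (LGP2), a partner of the RNA sensors RIG-I and MDA5, gave 13.3, 25.8 and 15.2 CPM without Dox and 133, 219.6 and 228 CPM with Dox (3.44, SE 0.34, edgeR adjusted p 1.01e-07). Trim25, the ubiquitin ligase that acts on RIG-I, gave 40.9, 40.8 and 38.6 CPM and then 167, 196 and 195 CPM (2.20, SE 0.21, edgeR adjusted p 1.01e-07). Adar, which edits adenosine in double-stranded RNA, gave 21.4, 34.0 and 17.2 CPM and then 102, 119.7 and 134 CPM (2.32, SE 0.27, edgeR adjusted p 2.4e-06). All 3 rose in each Dox library above the highest library without Dox. The genes for RIG-I (Ddx58, 2.67), MDA5 (Ifih1, 1.94), PKR (Eif2ak2, 1.59) and the Z-nucleic acid sensor ZBP1 (Zbp1, 3.74) also passed. The adaptors did not pass, with log2 fold changes of -0.10 for Mavs and 0.55 for Tmem173 (STING), nor did the DNA sensor cGAS (Mb21d1, -0.11). Dhx58 and Adar overlap annotated genes on the opposite strand, and strand use in counting is not stated.

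Of the signalling chain itself 3 of 19 tested genes were called higher (median 0.04), Stat2 and Irf9, which encode transcription factors of the response, among them. Stat2 gave 37.4, 50.3 and 40.6 CPM without Dox and 107, 166 and 198 CPM with Dox (1.86, SE 0.30, edgeR adjusted p 0.000246). Irf9 gave 4.45, 8.16 and 10.1 CPM and then 26.5, 33.3 and 31.5 CPM (2.00, SE 0.37, edgeR adjusted p 0.00147). Neither gene overlapped between the groups. The receptor genes Ifnar1 (0.01) and Ifnar2 (0.49), the kinases Jak1 (0.00) and Tyk2 (0.03) and the upstream factor Irf3 (0.00) did not pass, nor did Irf1 (0.90, edgeR adjusted p 0.154). The feedback inhibitor Socs1 was too sparse to test, with 2 counts in all without Dox and 16 with Dox, a ratio of 5.79 (exact 95% interval 1.36 to 51.9).

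The ISG15 system attaches a ubiquitin-like tag to proteins, and 12 of 16 tested genes of this list, which also holds TRIM family ubiquitin ligases, were called higher (median 2.10). Usp18, which removes ISG15 and restrains the interferon receptor, gave 12.5, 10.9 and 8.12 CPM without Dox and 69.8, 162 and 136 CPM with Dox (3.48, SE 0.42, edgeR adjusted p 3.21e-06). Lgals3bp, a secreted glycoprotein, gave 70.3, 113 and 69.0 CPM and then 317, 399.7 and 379 CPM (2.14, SE 0.21, edgeR adjusted p 1.28e-07). In both genes the lowest Dox library was replicate 1, and it still lay above the highest library without Dox. The E1 and E2 enzymes for ISG15, Uba7 (2.52) and Ube2l6 (2.20), passed as well. Trim12a (1.99) overlaps Trim34a and Trim34b on the opposite strand and is uncertain. Isg15 itself, counted over 638 bases, had 0 counts in all libraries without Dox and 4 in each library with Dox, at least 2.9-fold higher over the summed libraries against a floor of 3 counts, and was not tested.

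Antiviral effectors formed the largest of the interferon lists, with 31 of 40 tested genes called higher (median 2.25), and 40 of 40 had a log2 fold change above 0. Rtp4, a receptor-transporting protein with antiviral activity, gave 2.67, 6.80 and 7.10 CPM without Dox and 66.4, 119 and 118 CPM with Dox (4.18, SE 0.44, edgeR adjusted p 3.16e-07). Bst2 (tetherin), which holds budding virions at the membrane, gave 14.2, 15.0 and 20.3 CPM and then 104, 183 and 155 CPM (3.12, SE 0.33, edgeR adjusted p 4.4e-07). Slfn8 of the Schlafen family gave 2.67, 2.72 and 5.07 CPM and then 44.3, 64.5 and 83.1 CPM (4.09, SE 0.49, edgeR adjusted p 2.85e-06). The groups stood apart without overlap in all 3. The GTPases Mx1 (4.09) and Mx2 (4.02), viperin (Rsad2, 4.40) and Ifit3 (4.51) passed, whereas Ifit2 did not (2.22, edgeR adjusted p 0.0782). Ifit1 was too sparse to test, with 2 counts in all without Dox and 24 with Dox, a ratio of 8.69 (exact 95% interval 2.16 to 75.9).

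The guanylate-binding proteins and immunity-related GTPases, which attack the vacuoles of intracellular microbes, were called higher in the 11 genes tested of 17 listed (median 2.88), with Iigp1 and Gbp5 at no more than 3 counts in any library without Dox. Gbp3 gave 59.6, 103 and 44.6 CPM without Dox and 308, 624 and 573 CPM with Dox (2.88, SE 0.42, edgeR adjusted p 4.68e-05). Igtp gave 1.78, 5.44 and 2.03 CPM and then 28.9, 57.3 and 50.6 CPM (3.90, SE 0.56, edgeR adjusted p 4.41e-05). Iigp1 gave 0.89, 4.08 and 1.01 CPM and then 22.6, 60.4 and 55.1 CPM, and as it had at most 3 counts in any library without Dox it is given by its summed counts, 22.3 times higher with Dox (exact 95% interval 9.35 to 69.7). In all 3 the highest library without Dox was replicate 2 and the lowest with Dox was replicate 1, with a clear gap between them. Gbp family members share sequence, and the split of reads among them is uncertain.

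In antigen presentation by MHC class I a minority of the genes passed. Of 16 tested genes of 24 listed (the other 8, B2m and H2-D1 among them, were not analysed here) 2 were called higher and 2 more passed without the fold limit (median 0.75, 15 of 16 above 0). Nlrc5, the transactivator of class I genes, gave 95.2, 114 and 103 CPM without Dox and 165, 194 and 281 CPM with Dox (1.02, SE 0.18, edgeR adjusted p 0.0006). Leaving out 1 library moved Nlrc5 between 0.77 and 1.19, so its place above the fold limit was not firm. Tap1, a subunit of the peptide pump, gave 32.0, 19.0 and 17.2 CPM and then 57.8, 72.9 and 58.4 CPM (1.42, SE 0.28, edgeR adjusted p 0.00253), and without the no-Dox replicate 3 it did not pass (1.23, edgeR adjusted p 0.051). Tap1 overlaps Psmb9 on the opposite strand. Tapbp (0.82) and H2-Q4 (0.72) passed without reaching the fold limit, and the immunoproteasome genes Psmb8 (1.08), Psmb9 (1.36) and Psmb10 (1.09) did not pass. In the ADP-ribosyltransferase (PARP) family 5 of 16 tested genes were called higher (median 0.13), namely Parp14 (3.21), Parp9 (2.37), Parp10 (1.5), Parp12 (1.49) and the antiviral zinc-finger protein gene Zc3hav1 (1.47), which also stands among the effectors. The DNA-repair members Parp1 (0.03) and Parp2 (-0.06) did not pass.

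**Figure D3:**
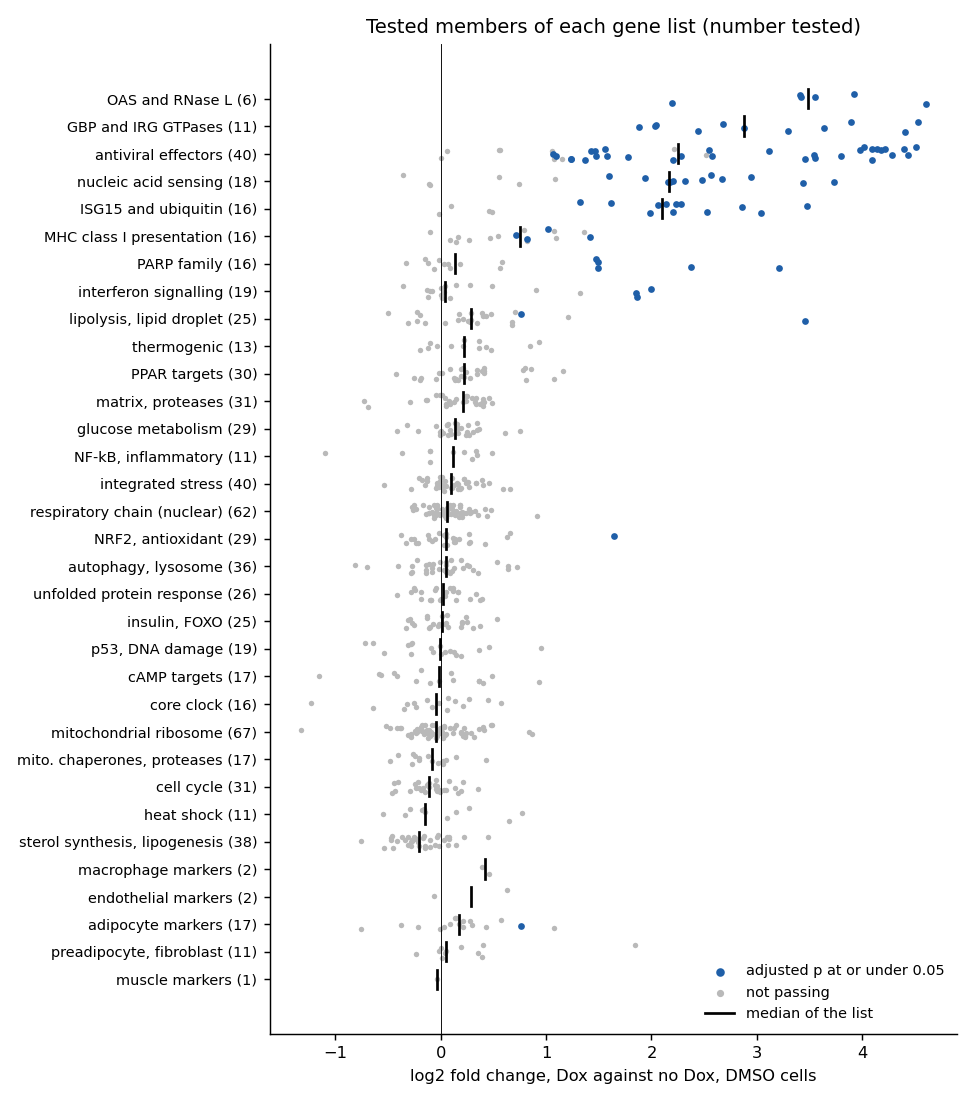
Log2 fold change of Dox against no Dox in DMSO cells (x axis) for every tested member of 33 gene lists (y axis, number tested in parentheses), with the list median as a bar. Members passing an adjusted p of 0.05 (dark) make up most of the OAS, GBP, effector, sensing and ISG15 lists at the top and fewer of the MHC class I, PARP and signalling lists, while elsewhere Abhd5, Plin1 and Gstm5 are the members that pass.

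In all, the 8 lists name 196 genes, of which 176 were in the table and 141 had enough counts to be tested. Of these 81 were called higher, 2 passed without the fold limit and 58 did not pass, and the median of the 141 was 1.5 with 125 above 0. The 81 are 57.4% of the 141, against 0.874% of all tested genes. As the lists were written with earlier results of these data known, this share describes them and tests nothing. Their summed level was 1668, 2191 and 1609 CPM without Dox and 6183, 10145 and 9715 CPM with Dox. Every library with Dox was above every library without it, and replicate 1 was the lowest of the Dox libraries by a wide margin. That library also had the most counts of the 6, 1956565, and the part of depth in its level was not tested. The same replicate number was lowest with Dox in the stimulated cells, at 5231 against 8604 and 10441 CPM with ISO and at 6027 against 10377 and 11150 CPM with SR-3420. Without the Dox replicate 1 in DMSO, 100 genes were called higher in place of 89. Of the NF-κB and inflammatory list 0 of 11 tested genes passed in edgeR (median 0.12, range -1.10 to 0.48), 1 of them at an unadjusted p under 0.05.

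Outside the interferon lists 8 genes were called higher and 2 lower, Abhd5 among the former. Genomic overlap or neighbourhood touched several of them. Art3, an ADP-ribosyltransferase gene (chromosome 5, 92760867 to 92843653), gave 2.67, 5.44 and 3.04 CPM without Dox and 16.4, 22.9 and 14.6 CPM with Dox (2.30, SE 0.48, edgeR adjusted p 0.00598). It overlaps chemokine genes on the opposite strand that were not analysed here, so the source of its counts is uncertain. AI607873 (chromosome 1, 175653559 to 175671940) lies 5485 bases from Ifi204, a called gene of the interferon-inducible p200 cluster. Whether AI607873 itself belongs to that cluster or to the interferon response was not tested. It gave 0.89, 1.36 and 3.04 CPM and then 7.70, 17.7 and 15.7 CPM, 6.81 times higher by summed counts (exact 95% interval 2.72 to 21.9). It was the only 1 of the 8 within 100 kb of a called interferon gene (12.5%), where 163 of all 10037 tested genes outside the lists lay (1.62%). Gm6034 (chromosome 17, 36179906 to 36195590), in the MHC region, gave 8.90, 16.3 and 15.2 CPM and then 30.3, 41.6 and 42.7 CPM (1.49, SE 0.28, edgeR adjusted p 0.00199), and it overlaps 2 other annotated genes. Its window and that of AI607873 hold the ISRE letters printed above, as 2 of the 8.

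The other 7 had no called interferon gene within 100 kb. Plekha4, which encodes a phosphoinositide-binding pleckstrin homology protein, gave 29.4, 19.0 and 34.5 CPM without Dox and 68.8, 66.6 and 97.7 CPM with Dox (1.43, SE 0.24, edgeR adjusted p 0.00047). Gstm5, a glutathione transferase gene, gave 11.6, 13.6 and 8.12 CPM and then 38.5, 26 and 37.1 CPM (1.65, SE 0.33, edgeR adjusted p 0.00382). Both had their lowest Dox library well above their highest library without Dox, and both overlap an annotated gene on the opposite strand. Plekha4 kept its call in each of the 6 fits that left out 1 library. Bahcc1, a chromatin-associated BAH domain gene, gave 47.2, 89.8 and 86.2 CPM and then 114, 213 and 203 CPM (1.24, SE 0.29, edgeR adjusted p 0.0204), and it overlaps an annotated gene on the opposite strand. The uncharacterised 1810043G02Rik gave 11.6, 17.7 and 13.2 CPM and then 34.7, 36.4 and 28.1 CPM (1.27, SE 0.28, edgeR adjusted p 0.0113).

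Several of these calls rested on single libraries. Gstm5 did not pass without the no-Dox replicate 3 (1.46, edgeR adjusted p 0.0608), Gm6034 without the no-Dox replicate 1 (1.23, edgeR adjusted p 0.0657) and Art3 without the no-Dox replicate 1 or 3 (2.09 and 2.19, edgeR adjusted p 0.0982 and 0.0608). For 1810043G02Rik the call was lost without the no-Dox replicates 1 or 3 or the Dox replicate 1 (1.13, 1.23 and 1.23). Bahcc1 lost it without the no-Dox replicates 1 or 3 or the Dox replicates 2 or 3 (0.97, 1.39, 1.07 and 1.12), and AI607873 in each such fit but the one without the Dox replicate 1 (edgeR adjusted p up to 0.287). The number of called genes outside the lists was 6 without the no-Dox replicate 1, 25 without the no-Dox replicate 2 and 21 without the Dox replicate 1, against 10 in all libraries.

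The 2 genes called lower were Cdkl2 and Rhou. Cdkl2, a CDC2-related kinase gene (chromosome 5, 92435100 to 92472068), gave 25.8, 23.1 and 30.4 CPM without Dox and 11.1, 11.5 and 12.4 CPM with Dox (-1.20, SE 0.28, edgeR adjusted p 0.0188). Rhou, an atypical small GTPase gene (chromosome 8, 126177829 to 126187780), gave 24.9, 20.4 and 20.3 CPM and then 12.5, 6.25 and 5.62 CPM (-1.26, SE 0.31, edgeR adjusted p 0.0327), and it overlaps an annotated gene on the same strand. In both, no library with Dox reached the lowest library without it. Neither call was firm, as Cdkl2 passed only without the no-Dox replicate 2 and Rhou only without the Dox replicate 1 among the fits that left out 1 library. In the others Cdkl2 lay between -1.24 and -1.09 (edgeR adjusted p 0.0542 to 0.144) and Rhou between -1.33 and -1.10 (edgeR adjusted p 0.0512 to 0.235).

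Without the fold limit, 28 genes outside the interferon lists were higher and 9 lower, and 36 of these 37 did not overlap between the groups, Myo7a being the exception. Such separation, found in 1522 of all 10178 genes, is favoured by the choice on adjusted p. Tcirg1, a subunit of the vacuolar proton pump, gave 75.6, 87.1 and 71.0 CPM without Dox and 122, 161 and 179.8 CPM with Dox (0.97, SE 0.19, edgeR adjusted p 0.00199) and passed in each fit that left out 1 library. Pglyrp3, a peptidoglycan recognition protein, gave 233, 343 and 284 CPM and then 414, 461 and 600.0 CPM (0.78, SE 0.17, edgeR adjusted p 0.00859). Rarb, a retinoic acid receptor, gave 319, 403 and 333 CPM and then 507, 593 and 547 CPM (0.65, SE 0.14, edgeR adjusted p 0.0113). Pglyrp3 did not pass without the no-Dox replicates 1 or 3 or the Dox replicate 3 (0.64, 0.77 and 0.61), and Rarb without the no-Dox replicates 1 or 3 or the Dox replicate 2 (0.57, 0.61 and 0.59). Bsg (0.63), Por (0.49) and Cd300lg (0.81) were among the others. On the lower side Ip6k2, an inositol hexakisphosphate kinase, gave 152, 166 and 170.4 CPM without Dox and 103, 118 and 84.3 CPM with Dox (-0.67, SE 0.14, edgeR adjusted p 0.00433), and only without the Dox replicate 3 did it not pass (-0.58, edgeR adjusted p 0.0591). The other lower genes were Spice1 (-0.88), Smarce1 (-0.71), Trpm4 (-0.82), 1190002N15Rik (-0.95), Pi15 (-0.97) and Rbm12b2 (-0.92), and each of these 6 lost its place in 3 to 5 of the 6 fits that left out 1 library. The count of lower genes was 3 without the no-Dox replicate 1, 4 without the Dox replicate 2 and 2 without the Dox replicate 3, against 9.

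**Figure D4:**
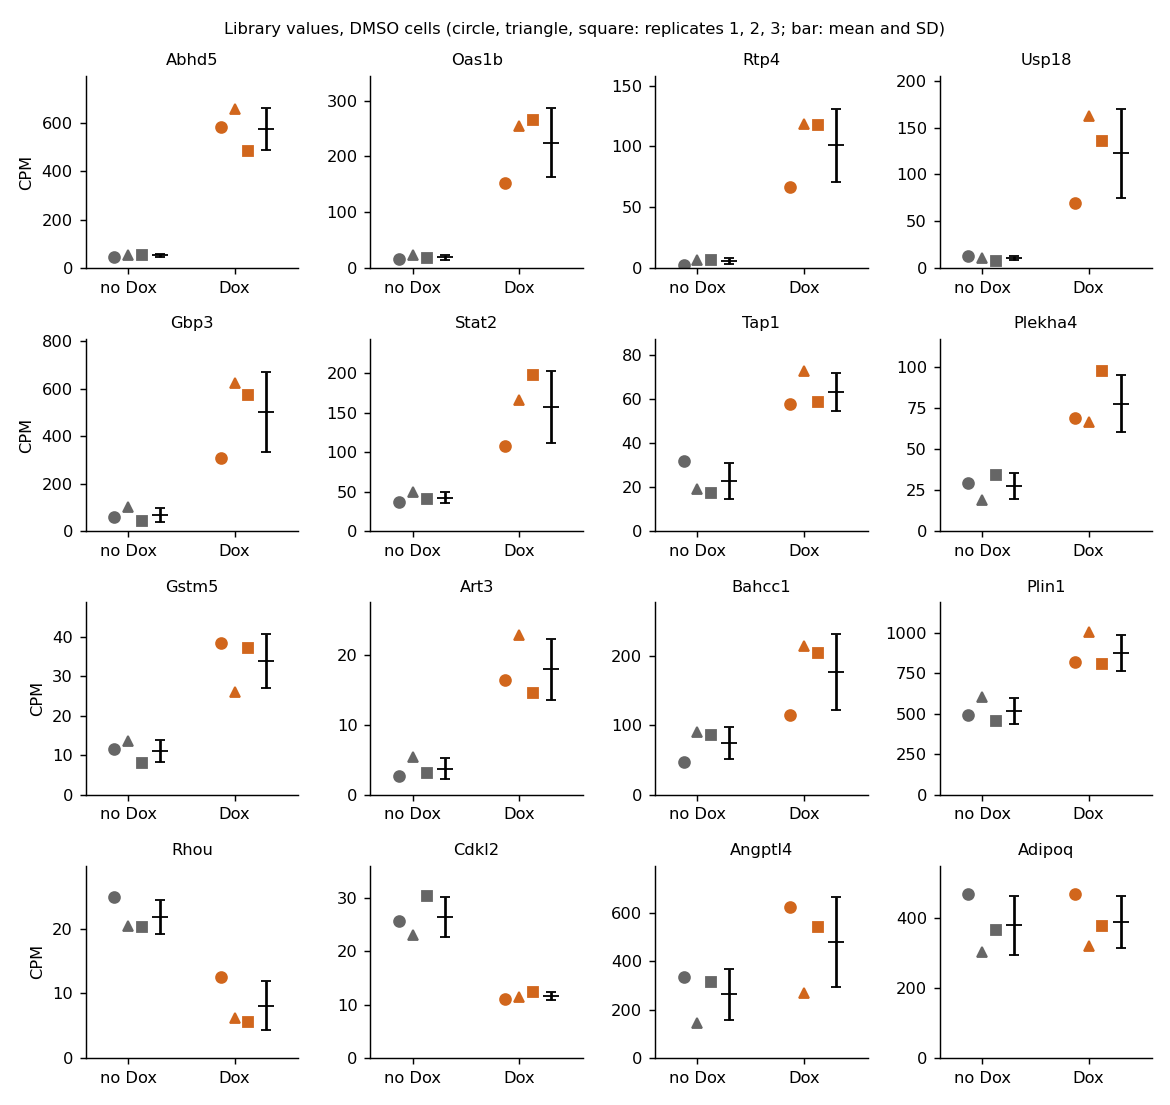
Level in CPM (y axes, each from 0) of 16 genes in the 3 libraries without and the 3 with Dox in DMSO cells, with the mean and SD (n = 3) beside each group. The interferon genes in the first rows and Abhd5 separate the groups widely, Cdkl2 and Rhou fall, and Angptl4 and Adipoq overlap between the groups.

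The lipolysis machinery was examined because ABHD5 acts in it. Of 25 tested genes of the list, 2 passed, Abhd5 itself and Plin1, with 19 above 0 and a median of 0.28. Plin1, the droplet coat protein that holds ABHD5, gave 491, 607 and 456 CPM without Dox and 823, 1006 and 806 CPM with Dox (0.76, SE 0.16, edgeR adjusted p 0.00519). Its groups did not overlap, but it did not pass without the no-Dox replicates 1 or 3 or the Dox replicate 2 (0.72, 0.68 and 0.66, edgeR adjusted p 0.0633, 0.0764 and 0.0658). Scaled by library totals only, it did not pass either (0.68, edgeR adjusted p 0.0867). Pnpla2, the gene for the lipase that ABHD5 activates, gave 431, 514 and 462 CPM and then 525, 514 and 544 CPM (0.17, SE 0.14, edgeR adjusted p 0.73). The ATGL inhibitor gene G0s2 (1.21, edgeR adjusted p 0.265), Plin2 (0.71, edgeR adjusted p 0.306) and Plin5 (0.68, edgeR adjusted p 0.59) did not pass. Plin2 passed without the no-Dox replicate 2 (1.11, edgeR adjusted p 0.0279). Lipe, which encodes hormone-sensitive lipase, was not analysed here.

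In the main edgeR fit, without a replicate block, 0 of 30 tested genes that fatty acid-sensing PPARs switch on passed in vehicle cells. Even so, 24 of the 30 lay above 0 and 8 had an unadjusted p under 0.05 (median 0.22). Pdk4, which encodes a kinase that spares glucose, gave 104, 51.7 and 94.4 CPM without Dox and 196, 93.7 and 144 CPM with Dox (0.80, SE 0.27, edgeR adjusted p 0.216). Angptl4, an inhibitor of lipoprotein lipase, gave 335, 143 and 312 CPM and then 625, 269 and 542 CPM (0.85, SE 0.26, edgeR adjusted p 0.146). In both genes replicate 2 was the lowest of its group with and without Dox, and the ranges of the groups overlap. For each replicate number, though, the value with Dox was the higher one. Angptl4 (1.14, edgeR adjusted p 0.0133) and the fatty acid importer of mitochondria Cpt1a (0.98, edgeR adjusted p 0.043) passed without the Dox replicate 2. With all libraries Cpt1a stood at 0.81 (edgeR adjusted p 0.128). With no filter on low counts Pdk4 (0.81, edgeR adjusted p 0.000516), Angptl4 (0.87, edgeR adjusted p 3.43e-06), Cpt1a (0.83, edgeR adjusted p 0.0247) and Plin2 (0.72, edgeR adjusted p 0.00438) passed. The same 4 genes passed with the replicate number as a block (edgeR adjusted p 0.00271, 6.49e-05, 0.0384 and 0.00158). The labels do not say whether equal numbers share an experiment, so whether these genes moved depends on that reading. The regulators Pparg (-0.37), Ppara (-0.19) and Ppargc1a (0.36) did not pass, and neither did Fabp4 (0.27) or Adipoq (0.04). Of 13 thermogenic and 17 adipocyte marker genes tested 0 and 1 passed, the latter Plin1.

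Sterol synthesis and lipogenesis stood at the other end, with 8 of 38 tested genes above 0 and a median of -0.21, and 0 passed in edgeR (7 at an unadjusted p under 0.05). Fdps of the sterol pathway gave -0.47 (edgeR adjusted p 0.263), the desaturase Scd2 -0.46 (edgeR adjusted p 0.399) and Acly, which makes cytosolic acetyl-CoA, -0.34 (edgeR adjusted p 0.381). Extracellular matrix and protease genes had a median of 0.21 with 24 of 31 above 0, and 0 passed (8 at an unadjusted p under 0.05). Of these the collagen gene Col18a1 passed without the no-Dox replicate 2 (0.69, edgeR adjusted p 0.0174). The integrated stress response (40 tested, median 0.10), the unfolded protein response (26 tested, median 0.02), mitochondrial chaperones and proteases (17 tested, median -0.08), the mitochondrial ribosome (67 tested, median -0.05) and the nuclear-encoded respiratory chain (62 tested, median 0.06) had 0 genes passing, with 0, 1, 1, 3 and 2 genes at an unadjusted p under 0.05. Of 29 tested NRF2 and antioxidant genes Gstm5 alone passed (median 0.05). The core clock, cAMP targets, p53 targets, cell cycle, heat shock, autophagy, insulin signalling and glucose metabolism lists had 0 genes passing in edgeR with medians between -0.15 and 0.14. Among them 0, 1, 3, 3, 1, 3, 3 and 4 genes had an unadjusted p under 0.05. Npc2, a lysosomal cholesterol carrier of the autophagy list, passed without the Dox replicate 1 (0.76, edgeR adjusted p 0.0391) and with no filter on low counts (0.65, edgeR adjusted p 0.022). In the preadipocyte list 0 of 11 passed, with Ly6a, itself known as interferon-inducible, at 1.84 (edgeR adjusted p 0.238). Its Dox effect was not repeated under the stimuli, at -0.47 with ISO and -0.07 with SR-3420.

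Whether the effect was tied to the vehicle was asked in the stimulated cells, whose Dox comparisons share no library with the vehicle one. Dox raised 319 genes (3.13%) with ISO and 248 (2.44%) with SR-3420 by the same call rule. With ISO, 79 of the 89 genes called higher in DMSO were called again, 88.8% of the 89 and 24.8% of the 319. With SR-3420 it was 82, 92.1% of the 89 and 33.1% of the 248. All 81 called interferon genes had a positive log2 fold change with each stimulus, and 70 of them were called in all 3 comparisons. Their median was 2.48 in DMSO, 2.34 with ISO and 2.32 with SR-3420. The difference of the Dox effect from that in DMSO passed for 222 of all tested genes with ISO (2.18%) and for 77 with SR-3420 (0.757%), and for 0 of the 81 with either stimulus in edgeR. These counts leaned on single libraries, with 111 for ISO without the no-Dox replicate 1, and for SR-3420 37, 50 and 39 without the no-Dox replicates 1, 2 and 3 and 29 without the Dox replicate 3. Stat2, for example, stood at 1.86 in DMSO, 1.07 with ISO and 1.76 with SR-3420, and Gbp3 at 2.88, 2.85 and 2.80. Dtx3l was lower under the stimuli (2.86, 1.79 and 1.17) and Ddx60 higher (2.48, 3.47 and 3.16). A difference that does not pass is no sign of equal effects.

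**Figure D5:**
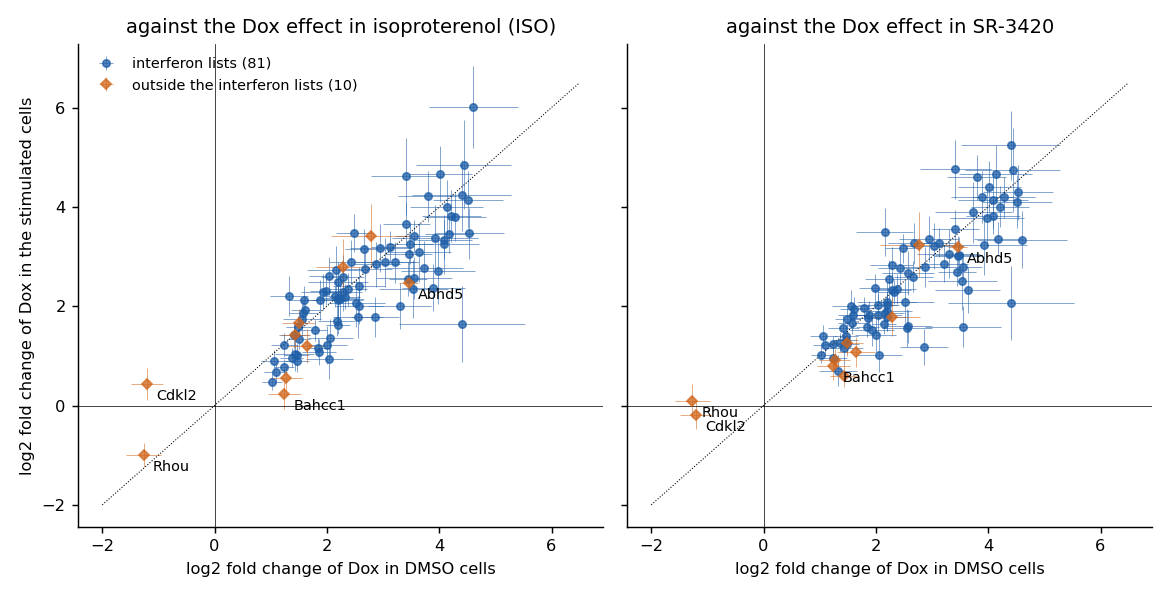
Log2 fold change of Dox in DMSO cells (x axes) against that in ISO-treated (left) and SR-3420-treated cells (right) (y axes) for the 91 called genes, with standard errors as bars and equality dotted. The interferon genes scatter about the dotted line, with 53 of the 81 below it for ISO and 49 for SR-3420. Cdkl2 and Bahcc1 lie near 0 or change sign with ISO, and Rhou lies near 0 with SR-3420.

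Of the 8 genes called higher outside the lists, 6 were called higher with ISO and 5 with SR-3420, and all 8 had a positive sign in each. Art3 (2.79 and 1.77), AI607873 (3.41 and 3.24), Gm6034 (1.66 and 1.25) and Gstm5 (1.19 and 1.08) kept large values with ISO and SR-3420. Bahcc1 stood at 0.24 and 0.79, Plekha4 at 1.42 and 0.59, and 1810043G02Rik at 0.55 and 0.91. Rhou was at -1.0 with ISO, where it was called lower, and 0.10 with SR-3420. The Dox effect differed from that in DMSO for Cdkl2 with ISO (0.44 against -1.20, difference 1.64, edgeR adjusted p 0.0369) and for Abhd5 with ISO (2.48 against 3.46, difference -0.98, edgeR adjusted p 0.0194). Without Dox, Abhd5 stood at 130 to 173 CPM with ISO against 47.2 to 55.8 CPM in DMSO. Pdk4, which did not pass in DMSO (0.80), stood at 2.56 with ISO and 2.77 with SR-3420, and both differences passed (1.76 and 1.98, edgeR adjusted p 0.00616 and 0.00639).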

How the data were processed

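Per the study's methods, TruSeq libraries of total RNA were aligned by the authors with STAR (2.4.2a) to mm9 and passed through HOMER, and iRNA-seq then counted the reads of each gene. The deposited values are raw counts per gene for 18 libraries, 3 in each of 6 groups, and whether counting used strand is not given in the sources used here. Counts were tested with edgeR 4.0.16 (R 4.3.3) by its quasi-likelihood test with TMM scaling and Benjamini-Hochberg adjustment over 10178 of 17672 genes; the 7494 others had too few counts by edgeR's default filter. All 18 libraries shared 1 fit, and CPM used TMM-scaled library sizes. Library totals of 689910 to 1956565 set the precision. The study describes 3 biologically independent experiments in technical duplicate, and the labels do not tie libraries to experiments. The scripts were tested on simulated data.

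The comparison, the 33 gene lists and the alternatives were chosen with earlier results of these data known. Genes named by rule were Abhd5, the 3 called genes of smallest p in each interferon list, the called genes of smallest p outside them (up to 25), the 10 of smallest p in each direction outside them at an adjusted p up to 0.05, the 3 of smallest p in each other list, and fixed lipid genes. Further list members, and the windows printed, were chosen after their values were seen. Ratios of summed counts were used for genes with at most 3 counts in every library without Dox, with exact 95% intervals and a floor of 3 counts. A gene that the rule names is not reported here. Start-site windows came from the mm9 genome and the deposited positions. Alternatives covered scaling, filters, a replicate block, the 6 DMSO libraries alone, thresholds, leaving out each library, DESeq2 1.42.0 and limma-voom (limma 3.58.1).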

Additional observations from a re-analysis of the deposited data

Results flagged for a closer look

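For 13 of the 120 genes followed over the alternatives, the effect of Dox under a stimulus differed from its effect in vehicle cells. The test was an interaction term in edgeR with Benjamini-Hochberg adjustment over all 10178 genes. Among all tested genes it passed for 222 (2.18%) with ISO and 77 (0.757%) with SR-3420. These totals fell as low as 111 and 29 with 1 library left out and were 600 and 339 with the replicate block. With ISO the log2 fold change of Dox lay above that in DMSO for the acyl-CoA synthetase Acsl1 (difference 1.63, adjusted p 0.00017), the fatty acid-binding protein gene Fabp4 (1.92, adjusted p 0.0251), Pdk4 (1.76, adjusted p 0.00616), Adipoq (0.85, adjusted p 0.0447) and Cdkl2 (1.64, adjusted p 0.0369), the last from -1.20 to 0.44. It lay below that in DMSO for Abhd5, whose rise was smaller (-0.98, adjusted p 0.0194), and for the lipid synthesis genes Fdps (-0.88, adjusted p 0.0425) and Acly (-0.74, adjusted p 0.0404). Fdps went from -0.47 in DMSO to -1.36 with ISO and Acly from -0.34 to -1.08. With SR-3420 it lay above that in DMSO for Pdk4 (1.98, adjusted p 0.00639), the stress-induced gene Nupr1 (1.16, adjusted p 0.0193), the autophagy gene Gabarapl1 (1.43, adjusted p 0.0257), Smarce1 (0.89, adjusted p 0.0491) and Rbm12b2 (1.32, adjusted p 0.0406), and below it for Fcer1g (-2.27, adjusted p 0.0322). Smarce1 went from -0.71 in DMSO to 0.18 and Rbm12b2 from -0.92 to 0.40. These differences share the 6 DMSO libraries, and none of the 81 called interferon genes was among them.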

How the results depend on the processing

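Abhd5 kept its rise in all 19 alternatives (log2 fold change 3.35 to 3.56), and the 89 genes called higher stayed within 1.5 times in each but a minimum of 10 counts in every sample, which tested 7457 genes and gave in edgeR 36 higher and 0 lower (753 at an unadjusted p under 0.05), 31 in and 5 outside the interferon lists, and 57 higher and 5 lower without the fold limit. With library totals only, 5 genes were called lower, the median of all genes was -0.08, and the genes whose Dox effect differed under a stimulus numbered 130 (ISO) and 42 (SR-3420). Plin1 (0.68, edgeR adjusted p 0.0867), Pglyrp3 (0.68, edgeR adjusted p 0.0899) and Rarb (0.55, edgeR adjusted p 0.154) did not pass with this scaling. With no filter on low counts 23 genes were called outside the lists, 178 were higher without the fold limit, and the differences numbered 358 and 156. With the 6 DMSO libraries only 1 gene was lower, and with limma-voom 1 of 71. Testing against a log2 fold change of 0.5 in edgeR gave 0 lower (249 at an unadjusted p under 0.05) and 5 outside the lists. An adjusted p of 0.01 in edgeR gave 0 lower of 1000 at an unadjusted p under 0.05, 5 outside, 1 lower without the fold limit, and 79 and 9 differences. DESeq2 gave 0 lower (739 genes at an unadjusted p under 0.05), 6 outside and 5 lower without the fold limit. Fewer genes or a stricter limit enter some of these by construction, and for the others the cause was not tested. Over the 120 genes followed, 2066 values kept their direction and side of the threshold, 106 lost their place, 37 gained one and 16 changed sign.

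With the replicate block 112 genes were called, 5 of them lower and 25 outside the lists, with 220 higher and 51 lower without the fold limit and 600 and 339 differences, and in the 6 libraries alone the block gave 4 lower, 24 outside, 244 higher and 73 lower. The 91 calls were all among the 112. Same-numbered libraries deviated together with r of 0.145, 0.235 and 0.0875, and each library correlated best with its own number, a hint from the data and not the design. Pdk4 (0.80), Angptl4 (0.85), Plin2 (0.72), Cpt1a (0.82), Npc2 (0.63), Cfd (0.55), Col18a1 (0.48), Col6a3 (0.40), Scd2 (-0.47) and Trp53inp1 (-0.57) passed under the block. In the 6 libraries alone these 10 passed under it as well, and so did Pparg (-0.38), Acsl1 (0.43), Fdps (-0.49), Atg7 (-0.41), Col4a2 (0.41), Cox8a (0.41) and Col1a1 (0.39). The first 5 of the 10 also passed without it when no filter on low counts was used.

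Leaving out 1 library gave 72 to 100 genes called higher, 1 to 6 lower, 68 to 85 in and 6 to 25 outside the lists, 74 to 134 higher and 2 to 9 lower without the fold limit, and 111 to 205 (ISO) and 29 to 67 (SR-3420) differences. Values near 0 changed sign, namely Adipoq with library totals (-0.0536) and over the left-out libraries (-0.13 to 0.21), Ppara (-0.55 to 0.26), Fabp4 (-0.18 to 0.53), Tek (limma-voom 0.0387, left-out libraries -0.63 to 0.57) and Des (block 0.0390, block in 6 libraries 0.0127, limma-voom 0.0211, left-out libraries -0.30 to 0.20). Leaving out the 10 most abundant genes, an alternative chosen after seeing the data, gave 92 calls with the 91 among them. Depth limits the 7494 genes not tested, Isg15 and Ifit1 included.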

Other observations

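Too few counts to be tested were found for 35 of the interferon-list genes. Samd9l was not counted in any library without Dox and was counted 3, 5 and 3 times in those with it, at least 2.66-fold higher over the summed libraries. Gbp4 was counted 0, 2 and 0 times without Dox and 9, 4 and 4 times in the Dox libraries, a ratio of 6.16 (exact 95% interval 1.46 to 54.9, counting error only). Of the 81 called interferon genes 33 (40.7%) lay within 100 kb of another of them, as did 163 of the 10037 tested genes outside the lists (1.62%) of one of the 81.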
